A study of Mus musculus with 15 samples.

Results

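The autophagy and lysosome genes described here are 42 mouse genes that act in building autophagosomes, choosing their cargo and degrading it in lysosomes. They were measured by RNA sequencing of the tibialis anterior, a fast-twitch muscle of the lower hind leg, in 15 female C57BL/6J mice. The genes were chosen by name, with earlier results of these data known, from a list of 43 names in which Vps34 is an older name of Pik3c3. All 42 were found in the deposited table of 47643 gene symbols, and all 42 were among the 11923 genes with at least 1 TPM (a level corrected for transcript length and library total) in at least 3 of the 15 libraries. The lowest value of any member in any library was 1.75 TPM, for Tfe3 in control 3, so no member passed this filter through 1 group alone.

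The 4 groups crossed a tumour with a drug. The melanoma plus lisinopril mice (n = 4) carried a melanoma xenograft that causes cachexia, the wasting of muscle and fat that accompanies some cancers, and were given lisinopril, a drug against high blood pressure that blocks angiotensin-converting enzyme. The melanoma mice (n = 4) carried the tumour and received a mock treatment. The lisinopril mice (n = 3) were mock-injected and received the drug, and the control mice (n = 4) were mock-injected and mock-treated. The design text gives collection at 49 days after injection. The labels give an age of 7 weeks without saying at which point, and name no melanoma line, drug dose or start of treatment. The extraction protocol, which cites earlier work for the sequencing, instead names a time of 3 weeks after LLC cells, another tumour, were injected, so the time of collection is in doubt. The labels call the libraries biological replicates and tie no library to a litter or day.

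Autophagy encloses proteins and organelles in a double membrane, the phagophore, which closes into an autophagosome and fuses with a lysosome. The ULK1 kinase complex starts the process, a lipid kinase complex around PIK3C3 and Beclin 1 marks the membrane, and ubiquitin-like conjugation enzymes attach the small ATG8 proteins (LC3 and GABARAP) to it. Receptors such as p62, the product of Sqstm1, tie cargo to the ATG8 proteins, and cathepsins and other acid hydrolases break the cargo down. In skeletal muscle this pathway degrades proteins and mitochondria beside the ubiquitin-proteasome system, and several of its genes are known targets of the FoxO transcription factors and of TFEB, the main activator of lysosomal genes.

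Facts of the whole table touch these values. The mitochondrial genome took 28.5 to 43.5% of TPM in melanoma plus lisinopril, 33.1 to 46.9% in melanoma, 42.5 to 46.3% in lisinopril and 40.8 to 52.8% in control libraries, so the share left for nuclear genes differed between libraries. Melanoma 2 and control 2 stood apart: over all tested genes their mean correlation with the rest of their own groups was 0.938 and 0.937, against 0.965 to 0.984 in the other 13 libraries. Control 2 also held 23878 TPM of haemoglobin transcripts, against at most 4197 TPM elsewhere. Read depth is unknown, because TPM carry no read totals.

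The tumour effect was estimated over all 4 groups, as the mean of the melanoma against control difference and the melanoma plus lisinopril against lisinopril difference. This sets 8 tumour-bearing against 7 tumour-free libraries. Of the 42 members, 11 rose in tumour-bearing muscle and none fell (limma on log2(TPM + 1), Benjamini-Hochberg adjusted p under 0.05 over all 11923 genes). That is 26.2% of the members. Over all genes tested 14.5% were called higher and 3.45% lower, 18.0% in either direction. The 11 were Rab7, Optn, Lamp2, Map1lc3b, Sqstm1, Ulk1, Ctsb, Lamp1, Map1lc3a, Bnip3 and Gaa. The log2 fold change was above 0 for 40 of the 42 members, against 69.8% of all genes, and its median was 0.35 over the members and 0.17 over all genes. An unadjusted p under 0.05 was found for 24 members, of which 23 were higher, against 38.0% of all genes in either direction and 30.2% higher. Those that rose were spread unevenly over the steps of the pathway. Both lysosomal membrane proteins, 2 of 4 cargo receptors, 2 of 5 ATG8 genes and 2 of 7 hydrolases rose, whereas 1 of 8 initiation genes and none of 8 phagophore and conjugation genes did; whether these shares differ was not tested.

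**Figure D1:**
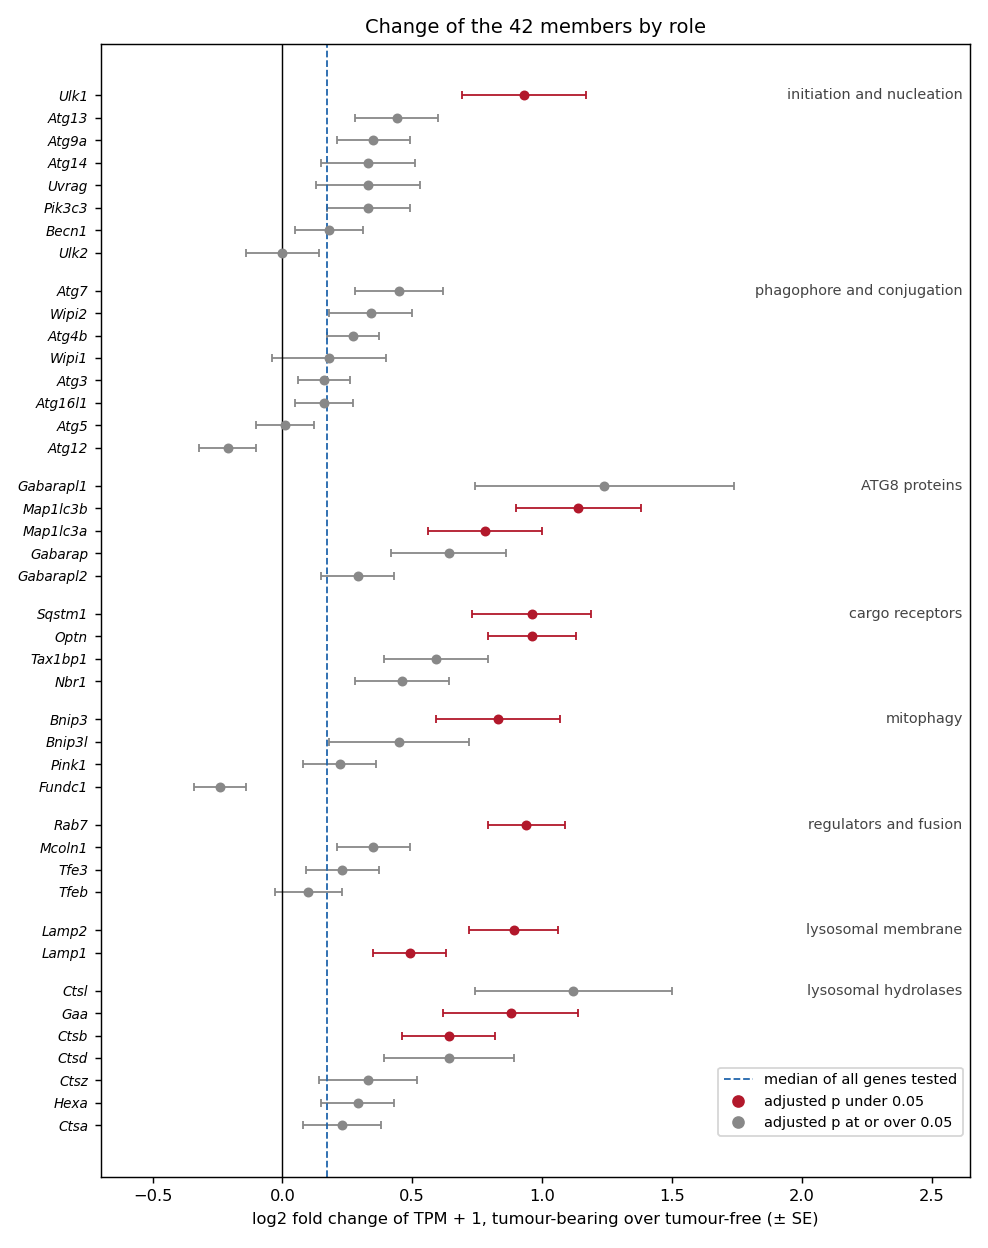
Log2 fold change (± SE) of TPM + 1 between 8 tumour-bearing and 7 tumour-free libraries for the 42 members, grouped by role; red marks an adjusted p under 0.05 and the dashed line the median of all genes tested, at 0.17. The conjugation genes sit between -0.21 and 0.45, and the 11 red points between 0.49 and 1.14.

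Because TPM are shares of a fixed total, the direction of weak changes depends on the scaling. Rescaling each library by the median ratio of its genes moved the median change of all genes to 0.01, and the median of the members to 0.17. The share of all calls that were higher was 80.8% as deposited, 60.8% with TPM recomputed without the mitochondrial genome and 49.1% after median-ratio rescaling. After the rescaling 8 members were called higher and 2 lower (19.0% and 4.76%). Of all 11923 genes, 1127 (9.45%) were then called higher and 1170 lower. A change above 0 was found for 33 of 42 members. Without the mitochondrial genome the same 11 members were called higher and 2 lower (26.2% and 4.76%). Of 11910 genes, 1281 (10.8%) were then called higher and 827 lower. The 2 that came out lower under both scalings were Atg12 and Fundc1. Without control 2 and melanoma 2, an alternative in which 25.8% of all genes were called higher, 19 members rose and none fell. Rab7, Optn, Lamp2, Map1lc3b and Sqstm1 were called higher in all 23 alternatives tried.

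**Figure D2:**
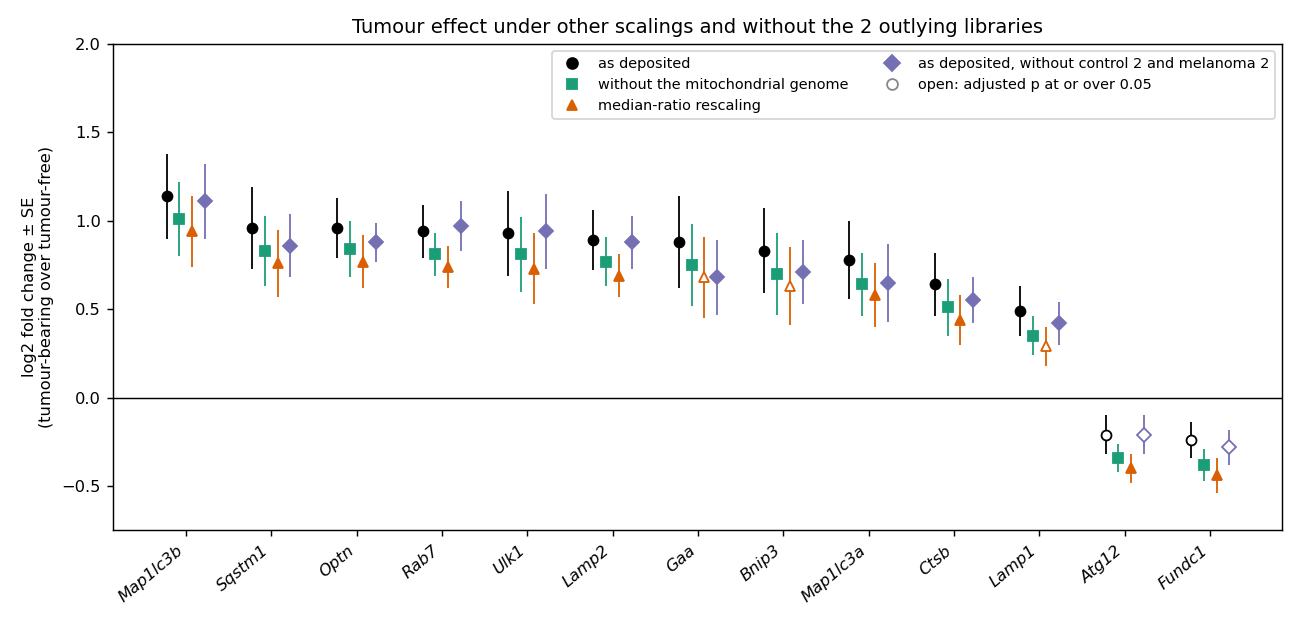
Log2 fold change (± SE), tumour-bearing over tumour-free, for the 11 members that rose and for Atg12 and Fundc1, with TPM as deposited, without the mitochondrial genome, after median-ratio rescaling, and as deposited without control 2 and melanoma 2; open symbols have an adjusted p at or over 0.05. Rab7 stays between 0.74 and 0.97 in these 4 settings, and the open symbols after rescaling are Lamp1, Bnip3 and Gaa.

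Among the genes that start autophagy, Ulk1 rose. It lies at chr5:110784488-110810097 (mm10, as are all positions given) and encodes the kinase that receives signals from the nutrient sensors mTORC1 and AMPK. Its level was 54.3, 25.9, 47.1 and 89.4 TPM in melanoma plus lisinopril muscles and 37.1, 69.8, 44.9 and 35.0 TPM in melanoma muscles, against 23.1, 21.6 and 29.9 TPM in lisinopril muscles and 22.1, 38.5, 19.3 and 19.9 TPM in control muscles. In the tumour-bearing muscles 5 of 8 libraries lay above every tumour-free library. Melanoma plus lisinopril 2 lay low and control 2 high for their groups. The change was 0.93 ± 0.24 on the log2 scale (SE), 1.90-fold, with an adjusted p of 0.0213 (limma). It was lost without lisinopril 1 or lisinopril 2 (adjusted p = 0.0571 and 0.0556). The other 7 initiation genes did not pass the test. Atg13, the scaffold of the ULK1 complex, measured 16.8 to 43.6 TPM in tumour-bearing and 15.3 to 19.0 TPM in tumour-free muscles, and 7 of 8 tumour-bearing libraries lay above all tumour-free ones (log2 0.44, adjusted p = 0.0674). Pik3c3, Atg14, Uvrag and Becn1, the lipid kinase and its partners, had log2 changes of 0.33, 0.33, 0.33 and 0.18. Atg9a, a membrane-spanning lipid scramblase, had 0.35. Ulk2, the close relative of Ulk1, was at 0.00 ± 0.14 (38.7 ± 8.23 TPM in tumour-bearing and 38.2 ± 5.88 TPM in tumour-free muscles, SD, n = 8 and 7).

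None of the 8 phagophore and conjugation genes passed the test. Their log2 changes ranged from -0.21 to 0.45 with a median of 0.17, equal to that of all genes. Atg5, the core of the conjugating complex, measured 12.7 ± 1.97 TPM in tumour-bearing muscles and 12.7 ± 1.58 TPM in tumour-free muscles. Atg7, the enzyme that activates ATG8 and ATG12, measured 3.11 to 9.65 TPM in tumour-bearing and 2.38 to 3.98 TPM in tumour-free muscles (log2 0.45, adjusted p = 0.0739). Only 2 of its tumour-bearing libraries, melanoma plus lisinopril 2 and 3, lay within the tumour-free range. Atg4b, the protease that processes ATG8 proteins, had 0.27, and Wipi2, which recruits the conjugating complex to the membrane, 0.34. Atg12 measured 12.8 to 18.4 TPM in tumour-bearing and 15.3 to 20.6 TPM in tumour-free muscles. Its log2 change was -0.21 ± 0.11 (adjusted p = 0.156) as deposited, -0.34 without the mitochondrial genome (adjusted p = 0.0134) and -0.40 after median-ratio rescaling (adjusted p = 0.00452).

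The ATG8 proteins coat the autophagosome membrane, and 2 of the 5 genes rose. Map1lc3b, at chr8:121590361-121598760, encodes LC3B, the protein whose lipid-bound form is the usual marker of autophagosomes. Its level was 191, 96.6, 107 and 266 TPM in melanoma plus lisinopril muscles and 141, 239.8, 105 and 108 TPM in melanoma muscles, against 63.2, 61.3 and 66.4 TPM in lisinopril muscles and 61.0, 103, 51.2 and 64.6 TPM in control muscles. The 8 tumour-bearing libraries lay above every tumour-free library except control 2, which reached 103 TPM and was passed by 7 of them. The change was 1.14 ± 0.24 on the log2 scale, 2.20-fold (adjusted p = 0.00901). The annotated gene Gm20388 spans the same strand along all of Map1lc3b and reached at most 31.4 TPM, so the counting may divide reads between them.

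Map1lc3a (chr2:155276297-155278073), which encodes LC3A, was the most abundant ATG8 gene in every library, with 33.6 to 60.1% of the summed ATG8 TPM. Its level was 421, 328, 253 and 526 TPM in melanoma plus lisinopril muscles and 508, 759.5, 408 and 323 TPM in melanoma muscles, against 189, 213 and 168 TPM in lisinopril muscles and 502, 299, 199 and 324 TPM in control muscles. The groups overlapped: control 1 nearly reached melanoma 1, and all 3 lisinopril libraries lay under every tumour-bearing library. The change was 0.78 ± 0.22 (1.71-fold, adjusted p = 0.0299, limma), and it was lost, with adjusted p between 0.0513 and 0.0693, without control 3, control 4, any of the 3 lisinopril libraries, or melanoma plus lisinopril 1 or 4. The call was also lost with no filter on low values, and after median-ratio rescaling without control 2 and melanoma 2.

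The 3 GABARAP genes, whose products act late in autophagosome closure, did not pass. Gabarapl1 had the highest change of any member, 1.24 ± 0.50 on the log2 scale (2.37-fold, adjusted p = 0.0866), and it rested on few libraries. It measured 675 TPM in melanoma 2, 107 to 119 TPM in melanoma plus lisinopril 1, 2 and 4, and 41.8 to 51.0 TPM in the other tumour-bearing libraries, against 28.4 to 70.2 TPM in tumour-free muscles. Without melanoma 2 it was called higher (0.77 on the log2 scale, adjusted p = 0.0486). Gabarap measured 134 to 442 TPM in tumour-bearing and 104 to 152 TPM in tumour-free muscles (0.64 ± 0.22, adjusted p = 0.0544), and Gabarapl2 68.1 to 142 TPM and 59.7 to 79.0 TPM (0.29, adjusted p = 0.149).

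Cargo receptors bind ubiquitin on one side and ATG8 proteins on the other. Sqstm1 (chr11:50199366-50210827), which encodes p62, measured 502, 398, 325 and 687 TPM in melanoma plus lisinopril muscles and 371, 785, 279 and 280.5 TPM in melanoma muscles, against 218, 206 and 219.6 TPM in lisinopril muscles and 249.7, 299, 142 and 221 TPM in control muscles. In these data 6 of 8 tumour-bearing libraries lay above every tumour-free library, and melanoma 3 and 4 lay below control 2. The change was 0.96 ± 0.23 (1.94-fold, adjusted p = 0.0172). Optn (chr2:5020642-5064051), whose product optineurin also serves in removing damaged mitochondria, measured 93.8, 95.5, 66.2 and 82.8 TPM in melanoma plus lisinopril muscles and 72.2, 131, 54.8 and 54.4 TPM in melanoma muscles, against 35.2, 37.7 and 37.2 TPM in lisinopril muscles and 39.5, 54.6, 38.5 and 40.1 TPM in control muscles. Its 3 lisinopril libraries lay under all 4 control libraries, and 7 of 8 tumour-bearing libraries lay above control 2, the highest of the tumour-free. The change was 0.96 ± 0.17 (1.95-fold, adjusted p = 0.00413). Nbr1, a receptor related to p62, and Tax1bp1 had 0.46 (adjusted p = 0.0776) and 0.59 ± 0.20 (adjusted p = 0.0511). Both were highest in melanoma 2, at 72.5 and 55.5 TPM.

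Of the mitophagy genes, Bnip3 rose. It lies at chr7:138890836-138909519 and encodes a receptor on the outer mitochondrial membrane that is known as a target of hypoxia signalling and of FoxO3 in muscle. Its level was 346, 203, 209 and 463 TPM in melanoma plus lisinopril muscles and 224, 544, 182 and 179 TPM in melanoma muscles, against 131, 156 and 125 TPM in lisinopril muscles and 160.0, 213, 165 and 133 TPM in control muscles. The groups overlapped, since 4 of 8 tumour-bearing libraries were above control 2 and the other 4 lay between 179 and 209 TPM. The change was 0.83 ± 0.24 (1.78-fold, adjusted p = 0.0336). It was lost after median-ratio rescaling (0.63, adjusted p = 0.0557, limma) and, with adjusted p between 0.0568 and 0.0792, without control 1, 3 or 4, any of the 3 lisinopril libraries, or melanoma plus lisinopril 1 or 4. The call of Bnip3 was also lost with no filter on low values. Its near relative Bnip3l had 0.45 ± 0.27 (adjusted p = 0.235), with 182 TPM in melanoma 2 and 37.1 to 82.5 TPM in every other tumour-bearing library. Fundc1, a mitophagy receptor of the outer membrane, measured 15.6 to 20.8 TPM in tumour-bearing and 18.0 to 24.5 TPM in tumour-free muscles. Its log2 change was -0.24 ± 0.10 (adjusted p = 0.0831) as deposited, -0.38 without the mitochondrial genome (adjusted p = 0.0151) and -0.44 after median-ratio rescaling (adjusted p = 0.0109). Pink1, the kinase that marks damaged mitochondria, was among the most abundant members, at 569.6 ± 111 TPM in tumour-bearing and 484 ± 87.6 TPM in tumour-free muscles (0.22, adjusted p = 0.263).

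Rab7, the small GTPase that carries late endosomes and autophagosomes to the lysosome, separated the groups most cleanly. It lies at chr6:87999106-88045270 and measured 363, 263, 223 and 380.3 TPM in melanoma plus lisinopril muscles and 319, 294, 213 and 223 TPM in melanoma muscles, against 129, 148 and 133 TPM in lisinopril muscles and 138, 203, 129.7 and 155 TPM in control muscles. Every tumour-bearing library lay above every tumour-free one: the lowest of the 8 was melanoma 3, at 213 TPM, and the highest of the 7 was control 2, at 203 TPM. No other member separated in this way, and 1.49% of all genes did. The change was 0.94 ± 0.15 on the log2 scale (1.92-fold, adjusted p = 0.00195), and adjusted p ranged from 0.000582 to 0.00811 over the 23 alternatives. In its transcripts 11.2% of 50-base windows also occur in other genes, mostly the pseudogene Rab7-ps1. This share was larger for Gabarapl2 (12.2%), Bnip3 (16.5%), Bnip3l (20.8%), Atg9a (30.2%) and Ctsd (32.4%). The transcription factors that activate lysosomal genes did not pass the test. Tfeb measured 19.1, 18.5, 18.2 and 24.9 TPM in melanoma plus lisinopril muscles and 26.5, 17.8, 15.3 and 17.0 TPM in melanoma muscles, against 20.1, 17.5 and 21.3 TPM in lisinopril muscles and 15.5, 16.9, 13.7 and 21.3 TPM in control muscles. The groups overlapped throughout (0.10 ± 0.13, adjusted p = 0.618). Tfe3, the related factor, had 0.23 (adjusted p = 0.235), and Mcoln1, the lysosomal calcium channel, 0.35 (adjusted p = 0.0799).

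Both lysosomal membrane glycoproteins rose. Lamp2 (chrX:38401357-38456454), which chaperone-mediated autophagy and autophagosome fusion require, measured 37.9, 38.9, 28.9 and 53.0 TPM in melanoma plus lisinopril muscles and 40.1, 56.2, 37.1 and 32.5 TPM in melanoma muscles, against 14.1, 22.3 and 16.8 TPM in lisinopril muscles and 27.5, 34.7, 20.5 and 20.8 TPM in control muscles. Lisinopril 1 and 3 were the lowest, and 6 of 8 tumour-bearing libraries lay above control 2. The change was 0.89 ± 0.17 (1.85-fold, adjusted p = 0.00502). Lamp1 (chr8:13159161-13175338), the abundant structural protein of the lysosomal membrane, measured 530.1, 443, 513 and 756 TPM in melanoma plus lisinopril muscles and 566, 859.8, 543 and 507 TPM in melanoma muscles, against 408, 383 and 423 TPM in lisinopril muscles and 421, 449, 361 and 448 TPM in control muscles. All but melanoma plus lisinopril 2 lay above every tumour-free library. The change was small, 0.49 ± 0.14 (1.40-fold, adjusted p = 0.0279). After median-ratio rescaling it was 0.29 (adjusted p = 0.0811, limma), and the call was also lost without control 3, lisinopril 1 or lisinopril 2 (adjusted p = 0.0574, 0.0671 and 0.0673). With no filter on low values, or with rescaling and without control 2 and melanoma 2, Lamp1 was not called either. Grtp1, on the opposite strand, overlaps Lamp1 by 3317 bases and reached at most 7.49 TPM.

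The hydrolases digest what the lysosome receives, and 2 of the 7 rose. Ctsb (chr14:63122462-63145923), the cysteine protease cathepsin B, measured 271, 214, 171 and 231 TPM in melanoma plus lisinopril muscles and 250.5, 456, 231 and 183 TPM in melanoma muscles, against 126, 149 and 149 TPM in lisinopril muscles and 196, 197, 131 and 154 TPM in control muscles. In all, 6 of 8 tumour-bearing libraries lay above the 197 TPM of control 2, and melanoma plus lisinopril 3 and melanoma 4 did not. The change was 0.64 ± 0.18 (1.56-fold, adjusted p = 0.0271). It was lost, with adjusted p between 0.0503 and 0.0751 (limma), without control 3 or 4, lisinopril 1 or 2, or melanoma plus lisinopril 1 or 4. The call was also lost with no filter on low values. Fdft1, on the opposite strand, overlaps Ctsb by 774 bases and reached 219 TPM; whether the authors' counting used strand is not given, so their reads may not be told apart. Gaa (chr11:119267887-119285454), the acid alpha-glucosidase that degrades glycogen in lysosomes and is defective in Pompe disease, measured 203, 106, 113 and 216 TPM in melanoma plus lisinopril muscles and 133, 323, 105 and 92.4 TPM in melanoma muscles, against 75.8, 75.5 and 99.8 TPM in lisinopril muscles and 89.5, 77.1, 50.4 and 101 TPM in control muscles. Here 7 of 8 tumour-bearing libraries were above every tumour-free library, and melanoma 4 was not. The change was 0.88 ± 0.26 (1.83-fold, adjusted p = 0.0356). It was lost after median-ratio rescaling (0.68, adjusted p = 0.0517, limma) and, with adjusted p between 0.0503 and 0.0855, without control 1 or 3, any of the 3 lisinopril libraries, or melanoma plus lisinopril 1 or 4. With no filter on low values, or with rescaling and without control 2 and melanoma 2, Gaa was not called either.

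TFEB and TFE3 bind an E-box, CACGTG, usually preceded by T in the lysosomal CLEAR element, and FoxO factors bind GTAAACA. These letters were searched on both strands in RefSeq promoters (GRCm38.p6, 250 bases before to 50 after the annotated start), which were found for 35 of the 42 members and for 9 of the 11 that rose (all but Ctsb and Map1lc3a). CACGTG occurred in 11 of the 35 (31.4%), in 1079 of 9002 tested genes with a promoter and in 7.15% of all 32851 promoters. TCACGTG, which contains it, occurred in 8 (22.9%), in 7.02% of tested genes and in 3.77% of all promoters. GTAAACA occurred in none of the 35, in 3.08% of tested genes and in 3.65% of all promoters; at these shares a count of 0 in 35 does not set the members apart. Members with TCACGTG were found among those that rose (Lamp1 and Gaa) and those that did not pass (Atg14, Atg3, Atg7, Ctsa, Ctsd and Mcoln1). Lamp1 carries 4 copies, starting 62, 45, 28 and 16 bases before the RefSeq start, and Gaa 1. Several matches were also found in members that did not pass. Ctsa has them at positions -13, -12, 5 and 6, where neighbouring positions are overlapping matches on opposite strands. Atg3, Ctsd and Mcoln1 have them at more than 1 position too. Upstream bases of Lamp1 and Gaa are printed on the plus strand, with TCACGTG or its reverse complement in capitals. The Lamp1 stretch has 250 bases and the Gaa stretch 174. That of Gaa stops just before its GENCODE start and lacks the bases from there to the RefSeq start. The search of the whole Gaa promoter gave no further match. A match is a run of letters and no measured binding site.
Lamp1, chr8:13158911-13159160: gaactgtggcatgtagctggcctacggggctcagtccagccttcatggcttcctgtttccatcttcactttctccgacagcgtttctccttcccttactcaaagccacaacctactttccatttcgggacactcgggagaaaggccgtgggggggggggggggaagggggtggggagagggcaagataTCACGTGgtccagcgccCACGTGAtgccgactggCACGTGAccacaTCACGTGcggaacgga
Gaa, chr11:119267713-119267886: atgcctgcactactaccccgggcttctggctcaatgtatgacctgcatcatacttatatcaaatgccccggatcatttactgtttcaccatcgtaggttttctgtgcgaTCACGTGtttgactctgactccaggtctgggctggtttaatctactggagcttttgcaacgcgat

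Ctsl, the cysteine protease cathepsin L and a gene known to rise in wasting muscle, missed the threshold. Its level was 308, 123, 193 and 566 TPM in melanoma plus lisinopril muscles and 185, 894, 226 and 155 TPM in melanoma muscles, against 106, 114 and 98.3 TPM in lisinopril muscles and 170.4, 234, 96.2 and 98.7 TPM in control muscles. Only 3 of 8 tumour-bearing libraries lay above control 2, and melanoma 2 and melanoma plus lisinopril 4 were the 2 highest. The change was 1.12 ± 0.38 (2.17-fold, adjusted p = 0.0545). It passed without control 2, melanoma 4 or melanoma plus lisinopril 2 (adjusted p = 0.0282, 0.0369 and 0.0364). Ctsd, the aspartic protease cathepsin D and the most abundant member by its median, measured 468 to 1818 TPM in tumour-bearing and 368 to 589 TPM in tumour-free muscles (0.64 ± 0.25, adjusted p = 0.0784). Ctsa, Ctsz and Hexa had changes of 0.23, 0.33 and 0.29 and did not pass.

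**Figure D3:**
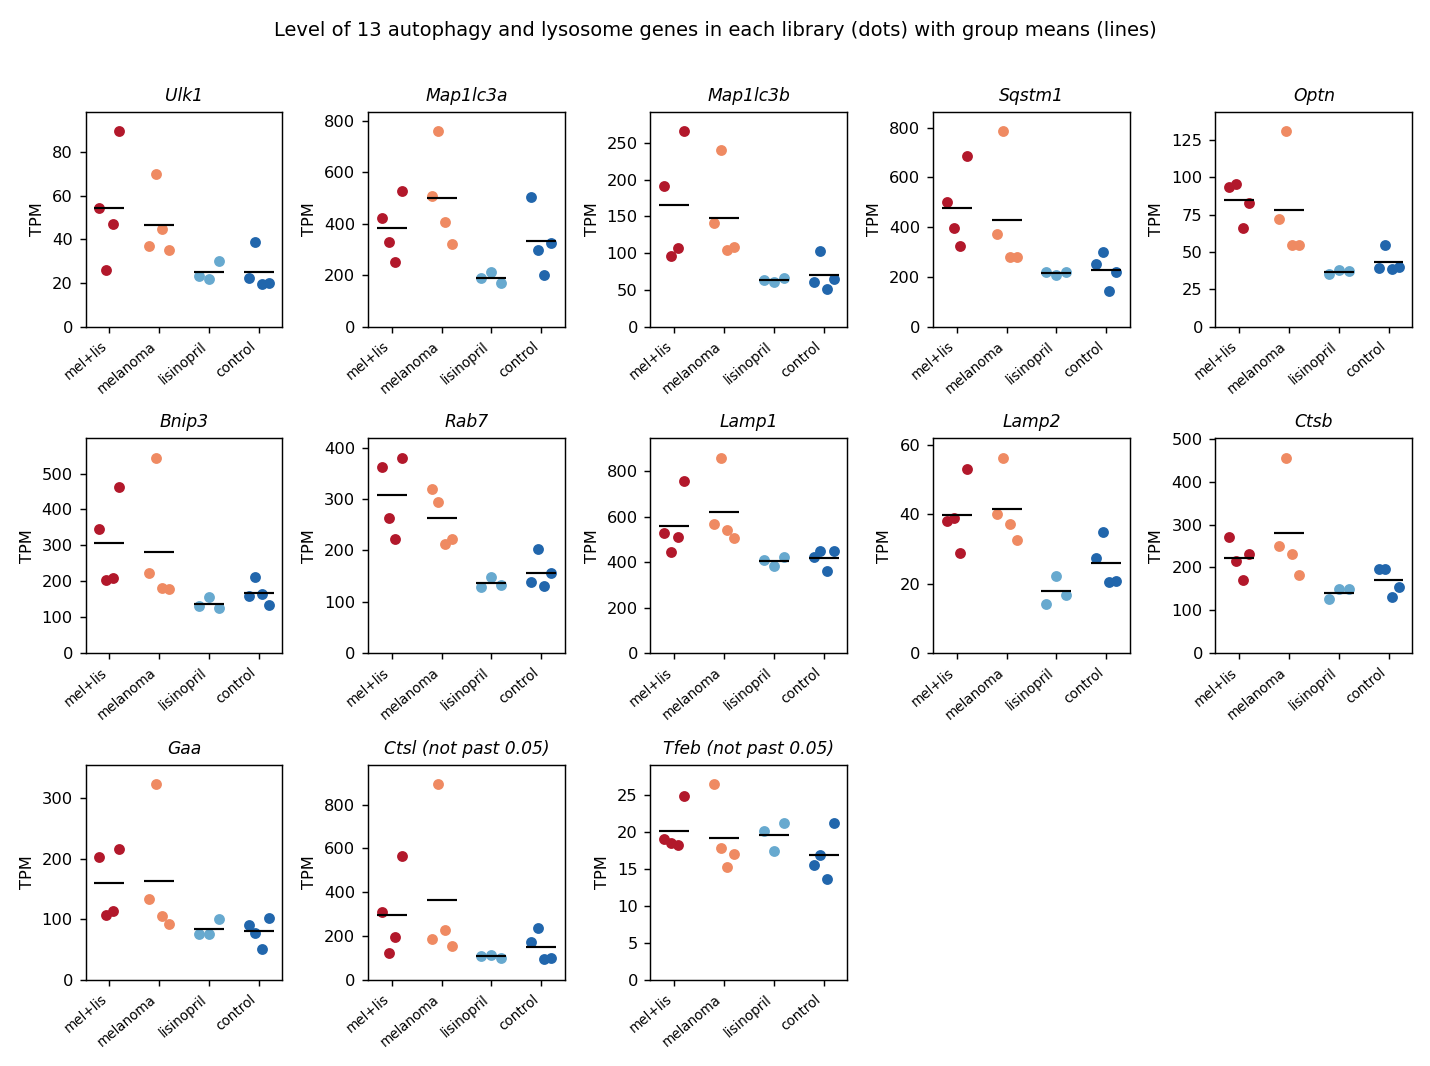
TPM of the 11 members that rose and of Ctsl and Tfeb in each library (dots), with group means (lines), in melanoma plus lisinopril, melanoma, lisinopril and control muscles; each panel's axis starts at 0. Rab7 is the panel in which no tumour-bearing dot reaches down to a tumour-free dot, and melanoma 2 is the highest dot for Sqstm1 (785 TPM), Ctsl (894 TPM) and Gaa (323 TPM).

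The 2 tumour comparisons were then read one by one. They share no library, but all groups share a common estimate of the spread, so their tests are not independent. In melanoma against control muscles no member was called, at 0.646% of all genes in either direction. An unadjusted p under 0.05 was found for 12 of 42 members, all higher. Of all genes, 18.5% had such a p in either direction, and 1444 of 11923 (12.1%) had it and were higher. The median log2 change was 0.40 over the members and 0.10 over all genes. These values were lower without melanoma 2, when 5 members had an unadjusted p under 0.05, and the median was 0.17 over the members and 0.05 over all genes. With all libraries, Rab7, Lamp1, Map1lc3b, Gabarap and Atg7 were higher in every melanoma than in every control library, which 5.33% of all genes were. The change of Rab7 was 0.74 ± 0.20 (adjusted p = 0.0958, limma) and that of Map1lc3b 1.04 ± 0.33 (adjusted p = 0.134). Of the 42 members, these 2 passed without control 2, when 3.8% of all genes were called higher.

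In melanoma plus lisinopril against lisinopril muscles 3 members rose: Rab7 by 1.13 ± 0.21 (2.19-fold, adjusted p = 0.0254), Optn by 1.17 ± 0.25 (2.25-fold, adjusted p = 0.0406) and Lamp2 by 1.11 ± 0.24 (2.16-fold, adjusted p = 0.0420). Of all genes 1.34% were called higher. The median log2 change was 0.40 over the members and 0.23 over all genes. In 21 of 42 members every melanoma plus lisinopril library lay above every lisinopril library, as in 29.0% of all genes. These 3 calls rest on few libraries: all 3 were lost without any 1 of the 3 lisinopril libraries or without melanoma plus lisinopril 1, 2 or 4, with adjusted p from 0.0507 to 0.209. Those of Optn and Lamp2 were also lost without control 1, control 4 or melanoma 1, and that of Lamp2 without melanoma 3 (adjusted p = 0.0542 to 0.0576). Without melanoma 2, when 4.97% of all genes were called higher, 8 members were, the other 5 being Bnip3, Gabarapl1, Map1lc3b, Sqstm1 and Tax1bp1.

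The drug comparisons gave no call. In melanoma plus lisinopril against melanoma muscles none of the 42 members passed (0.0% of all genes), and none had an unadjusted p under 0.05, against 189 genes in all (1.59%). Without melanoma 2, 5 members had an unadjusted p under 0.05, and the share of all genes in that setting is not given here. The members' log2 changes ran from -0.41 ± 0.37 for Bnip3l to 0.24 ± 0.32 for Sqstm1. In lisinopril against control muscles none passed either (0.0% of all genes), and 461 genes (3.87%) had an unadjusted p under 0.05. Map1lc3a was the 1 member among them, at -0.73 ± 0.32 (adjusted p = 0.714, limma). Optn was the 1 member whose 3 lisinopril libraries all lay below the 4 control libraries (-0.21 ± 0.25), as 4.13% of all genes did. The interaction, which asks whether the tumour effect differed with the drug, was called for no gene (0.0%), with 151 genes (1.27%) and no member at an unadjusted p under 0.05. Without melanoma 2 it was 4 members, again with the share of all genes not given here. The interaction ranged from -0.19 ± 0.54 for Bnip3l to 0.46 ± 0.49 for Bnip3. Errors of this size do not show that the effect was equal with and without the drug.

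The members did not move evenly over the libraries. Melanoma 2 held the highest value of 29 of the 42 members and melanoma plus lisinopril 4 of 8, while control 3 held the lowest of 22. The summed TPM of the 42 members were 4108 to 7085 in melanoma plus lisinopril, 3907 to 9989 in melanoma, 3021 to 3319.6 in lisinopril and 2757 to 4214 in control muscles. Melanoma plus lisinopril 4 had 35 members above every tumour-free library, and melanoma 2 had 34. In those libraries 41.9% and 42.5% of all genes lay so high. Melanoma 4 had 5, with 10.5% of all genes, and its mitochondrial share was the highest of the tumour-bearing libraries (46.9%). Melanoma plus lisinopril 4 had the lowest mitochondrial share (28.5%) and control 3 the highest (52.8%). With TPM recomputed without the mitochondrial genome the same 11 members were called higher and 2 lower. The members' median change moved from 0.35 to 0.25, and that of all genes from 0.17 to 0.06. After median-ratio rescaling Lamp1, Bnip3 and Gaa were not called. The part of the mitochondrial share in the differences between libraries was not tested.

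**Figure D4:**
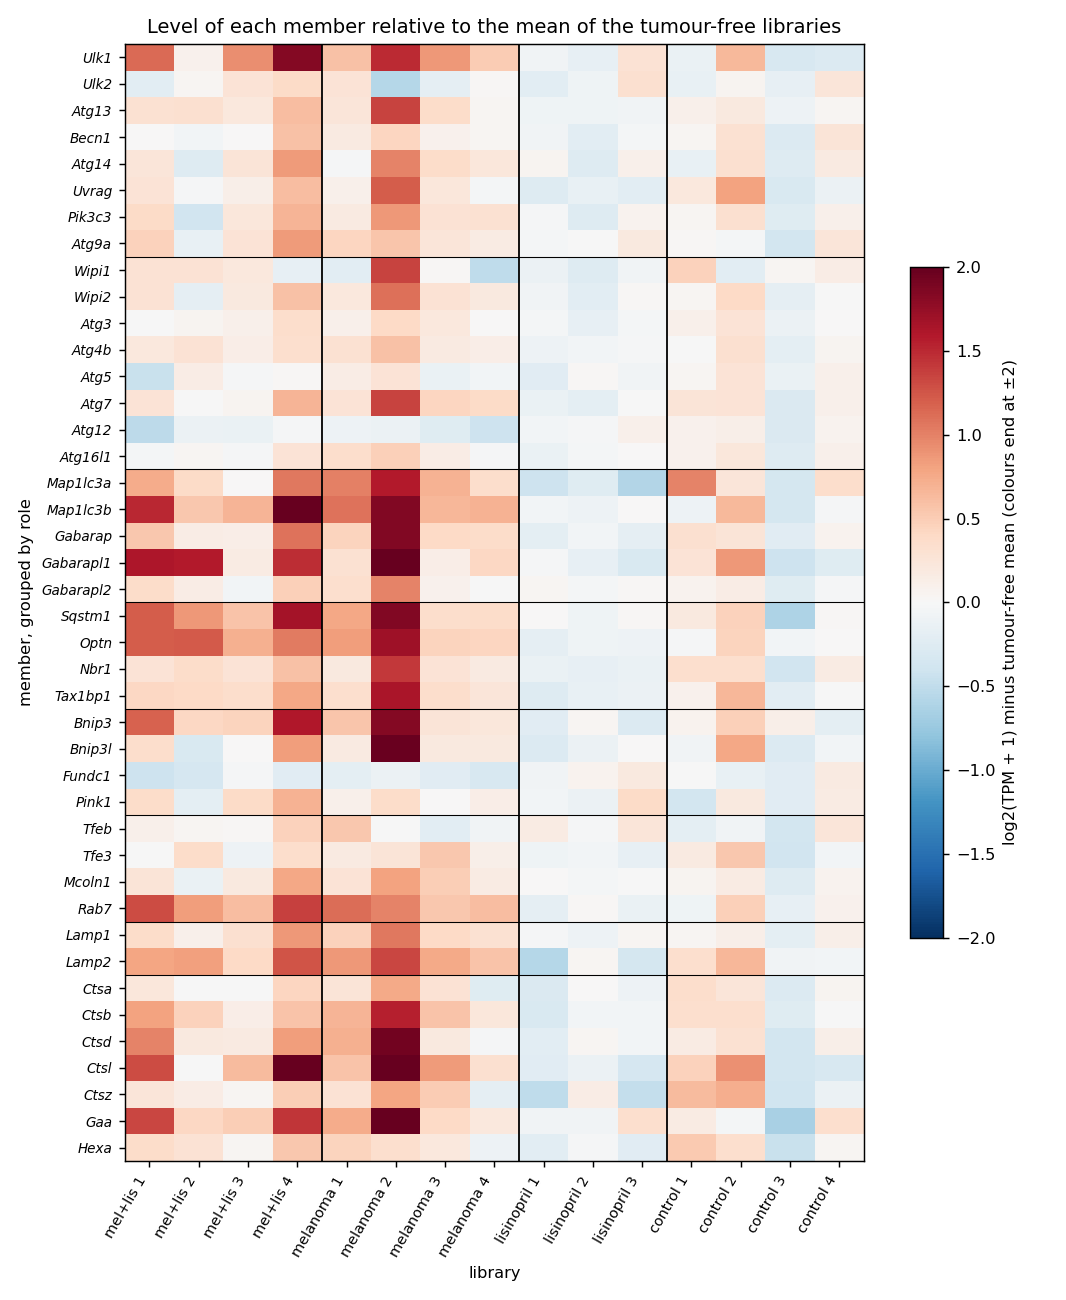
Level of each of the 42 members in each of the 15 libraries as log2(TPM + 1) minus the mean of the 7 tumour-free libraries (red higher, blue lower, colours end at ±2), with members grouped by role and libraries by group. Melanoma 2 is the reddest column, with a median of 1.07 over the members, and control 3 the bluest, at -0.26.

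The rest of the pathway was read from 5 lists of genes named for their function, beside the 14.5% of all genes called higher and 3.45% called lower in tumour-bearing muscle. Of 40 other autophagy genes 7 rose and 3 fell in tumour-bearing against tumour-free muscle (17.5% and 7.5%, median log2 change 0.25), a share of higher calls near that of all genes. After median-ratio rescaling, when 1127 of 11923 genes were called higher and 1170 lower, 5 rose and 4 fell. Without control 2 and melanoma 2, when 25.8% of all genes were called higher, 15 rose and 3 fell. Nrbf2, a subunit of the PIK3C3 complex, rose by 0.66 ± 0.16 (adjusted p = 0.0154), Ambra1, an activator of ULK1 and Beclin 1, by 0.46 ± 0.12 (adjusted p = 0.02), and Zfyve1, a marker of the sites where phagophores form, by 1.11 ± 0.31 (adjusted p = 0.0268). Atg10, the conjugating enzyme of ATG12, fell by 0.53 (adjusted p = 0.0259). Trp53inp2, a nuclear cofactor that promotes autophagy in muscle, fell by 0.82 (adjusted p = 0.0274), and the fusion protein gene Ykt6 by 0.25 (adjusted p = 0.0430).

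Of 26 upstream kinases and nutrient sensors 8 rose and 1 fell (30.8% and 3.85%, median 0.31). Foxo1, whose product drives genes of atrophy and autophagy, measured 24.6 ± 15.1 TPM in tumour-bearing and 5.28 ± 1.81 TPM in tumour-free muscles (SD, n = 8 and 7), a log2 change of 1.85 ± 0.35 (adjusted p = 0.00538). Mtor, the kinase that restrains autophagy, rose by 0.76 ± 0.19 (adjusted p = 0.0178) and Foxo4 by 0.50 ± 0.13 (adjusted p = 0.0187). Lamtor1, which anchors mTORC1 to the lysosome, fell by 0.33 (adjusted p = 0.0316). After median-ratio rescaling 4 rose and 1 fell, and without control 2 and melanoma 2, 13 rose and 1 fell.

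On the lysosomal side the outcome was mixed. Of 24 other lysosomal membrane and trafficking genes 5 rose and 1 fell (20.8% and 4.17%, median 0.32). After median-ratio rescaling 5 rose (20.8%, against 9.45% of all genes) and 3 fell. Without control 2 and melanoma 2, 7 rose (29.2%, against 25.8% of all genes) and 2 fell. With all libraries as deposited, the tetraspanin Cd63 rose by 0.88 ± 0.19 (adjusted p = 0.0108, limma) and Litaf by 1.08 ± 0.28 (adjusted p = 0.0232). Gnptab, which tags enzymes for the lysosome, rose by 0.70 ± 0.19 (adjusted p = 0.0239). Ostm1, the partner of a lysosomal chloride transporter, fell by 0.56 (adjusted p = 0.00440). Of 42 other hydrolases and their activators 2 rose (4.76%), Ids by 0.44 ± 0.10 and Tpp1 by 0.35 ± 0.11 (adjusted p = 0.0149 and 0.0414, limma). The median was 0.14, under that of all genes, and none was called after median-ratio rescaling. Without control 2 and melanoma 2, 6 rose (14.3%, against 25.8% of all genes). Of the 18 subunits of the vacuolar proton pump, which acidifies lysosomes, 3 rose (16.7%, near the share of all genes, median 0.18): Atp6v0d1, Atp6v1h and Atp6v1b2, by 0.52 ± 0.15, 0.67 ± 0.20 and 0.32 ± 0.10 (adjusted p = 0.0326, 0.0367 and 0.0391). After median-ratio rescaling 1 was called higher (5.56%, against 9.45% of all genes), and without control 2 and melanoma 2, 4 were (22.2%, against 25.8%). In each of the 2 tumour comparisons taken alone none of the 5 lists had a call.

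Macrophages and neutrophils are rich in lysosomes, and in bulk muscle a change in the number of cells of a type and a change in RNA per cell cannot be told apart. Of 12 tested macrophage markers 3 rose in tumour-bearing against tumour-free muscle (25.0%, median 0.70), beside 14.5% of all genes. Cd163 rose by 1.92 ± 0.26, Mrc1 by 1.02 ± 0.25 and Mertk by 0.50 ± 0.14 (adjusted p = 0.000985, 0.0171 and 0.0290, limma). The pan-macrophage markers Adgre1 and Cd68 had -0.09 ± 0.28 and 0.61 ± 0.49 and did not pass. C1qa, C1qb, C1qc and Cd14 lay at 0.80 to 0.90 (adjusted p from 0.0670 to 0.0961, limma). Csf1r, Lyz2 and Fcgr1 had 0.58 ± 0.29, 0.14 ± 0.38 and -0.12 ± 0.30 and did not pass. Cx3cr1, which was not tested, averaged 0.241 TPM in tumour-bearing and 1.15 TPM in tumour-free muscles. Without control 2 and melanoma 2, when 25.8% of all genes were called higher, 8 of the 12 rose (66.7%) and all 12 were above 0 (median 0.90). The summed level of the 13 markers in the table was 162 to 305 TPM in melanoma plus lisinopril, 198 to 467 TPM in melanoma, 82.4 to 230 TPM in lisinopril and 108 to 554 TPM in control muscles. All 6 tested neutrophil markers rose (median 1.63), with sums over 9 markers of 32.7 to 187 TPM, 105 to 353 TPM, 10.5 to 58.6 TPM and 21.5 to 99.9 TPM in the same 4 groups. The filter can keep a marker through its tumour-bearing libraries: Mmp8 and Cxcr2 averaged 0.404 and 0.803 TPM in tumour-free and 2.34 and 3.79 TPM in tumour-bearing muscles. The untested Mpo and Elane averaged 0.00323 and 0 TPM in tumour-bearing and 0.131 and 0.0386 TPM in tumour-free muscles. The untested Ly6g averaged 0.305 and 0.161 TPM. Cd63, Ctsb and Lamp1 are also expressed by macrophages and neutrophils, and the part of both cell types in the members' changes was not tested. Markers of melanocytes and melanoma summed to at most 1.27 TPM in any library, with Tyr and Oca2 at 0 in all 15. Of 10 skeletal muscle markers 2 rose, Des by 1.07 ± 0.19 and Ttn by 0.66 ± 0.12 (adjusted p = 0.00410 and 0.00504), and their sums were 75578 to 83911 TPM, 59052 to 108578 TPM, 67693 to 84947 TPM and 53259 to 81471 TPM in melanoma plus lisinopril, melanoma, lisinopril and control muscles.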

How the data were processed

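The authors deposited 1 table of TPM per gene symbol and library, already normalised so that every library has the same total; per the labels, the libraries were made with the TruSeq stranded mRNA kit and sequenced on a NovaSeq 6000, and per the submitters' processing notes the genome build was mm10. The aligner, the counting program and its use of strand were not given in the sources used here. From the TPM, genes with at least 1 TPM in at least 3 of 15 libraries were kept (11923 of 21659 above 0), log2(TPM + 1) was fitted with limma 3.58.1 in R 4.3.3 (4 group means, trended variance, 11 residual degrees of freedom), and two-sided p-values were adjusted over all kept genes at 0.05. Fold changes are on the log2(TPM + 1) scale, which understates those of low genes. The fit was tested on simulated data. Named genes were every called member plus Ctsl and Tfeb in full, and at most 3 genes per list and direction by smallest adjusted p. Tables used Python 3.11.15. Members and lists were chosen with earlier results of these data known. Results were recomputed with a pseudocount of 0.1, without the filter, with genes averaging 5 TPM or more, after median-ratio rescaling, after removal of the 13 mitochondrial symbols, with a replicate block, and leaving out each library in turn or, for the tumour effect, control 2 and melanoma 2 together. Added after seeing the data were that omission in the other comparisons and, in all, with median-ratio rescaling. Positions are from GENCODE for mm10 and promoters from RefSeq.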

Additional observations from a re-analysis of the deposited data

Results flagged for a closer look

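Of 126 combinations of a member with a group of 4 libraries, 13 had 1 library that stood far from the other 3 by Dixon's test; chance marks about 1 in 20 such groups. In 7 of the 13 the library was melanoma 2. It held 675 TPM of Gabarapl1, against 41.8 to 51.0 TPM in the other melanoma libraries, and 182 TPM of Bnip3l, against 51.6 to 52.9 TPM. Its other values were 442 TPM of Gabarap (158 to 165 TPM in the others), 72.5 TPM of Nbr1 (at most 32.4 TPM), 55.5 TPM of Tax1bp1 (20.6 to 22.1 TPM), 21.6 TPM of Wipi2 (11.1 to 11.9 TPM) and 9.65 TPM of Atg7 (4.00 to 4.60 TPM). None of these 7 genes was called in tumour-bearing against tumour-free muscle.

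In 3 the library was melanoma plus lisinopril 4, which was high for Becn1 at 25.7 TPM (16.0 to 16.8 TPM in the others), Tax1bp1 at 30.2 TPM (22.1 to 23.3 TPM) and Tfeb at 24.9 TPM (18.2 to 19.1 TPM). Gabarapl1 was low in melanoma plus lisinopril 3, at 42.9 TPM against 107 to 119 TPM. Optn was high in control 2, at 54.6 TPM against 38.5 to 40.1 TPM, and Atg12 low in control 3, at 15.3 TPM against 19.9 to 20.6 TPM.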

How the results depend on the processing

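The count of 11 members called in tumour-bearing against tumour-free muscle was 6 with no filter on low values (4.62% of all genes called higher). It was 19 without control 2 and melanoma 2 (25.8%), and ranged from 5 to 16 when each library was left out in turn. The count was 5 without lisinopril 1 or lisinopril 2 (4.87% and 6.26% of all genes called higher) and 6 without control 3 (7.1%). It was 7 without melanoma plus lisinopril 1 or 4 (9.58% and 7.94%), and 16 without melanoma 4 (19.4%). The cause was not tested. Called in all 23 alternatives were Rab7, Optn, Lamp2, Map1lc3b and Sqstm1, followed by Ulk1 in 21, Lamp1 in 17, Ctsb in 16, Map1lc3a in 14, and Bnip3 and Gaa in 13. In melanoma against control muscle the count of 0 ranged from 0 to 2, the 2 being found without control 2 (3.8% of all genes called higher). In melanoma plus lisinopril against lisinopril muscle the count of 3 was 0 with no filter (0.06% of all genes called higher). It ranged from 0 to 8 with each library left out, the 8 without melanoma 2 (4.97%). The count was 14 without control 2 and melanoma 2 (14.1%). With median-ratio rescaling as well it was 10 (8 higher and 2 lower), where 863 genes were called higher and 963 lower. These last 2 settings were added for this comparison after seeing the data. The other 3 comparisons gave 0 calls throughout. Same-numbered libraries did not pair (21 pairs, r from -0.153 to 0.359, 9 over 0.1), and 4 of 15 libraries correlated best with their own number. With the replicate block the counts were 13 and 3 (14.8% and 2.68% of all genes called higher). Unknown depth limits the low members, such as Tfe3 and Uvrag.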
